A study of Mus musculus with 11 samples.

Results

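The PAR bZIP factors Dbp, Tef and Hlf, together with their counterpart Nfil3, carry the timing of the circadian clock to its output genes, and their mRNA was followed in the tibialis anterior (TA) muscle of 11 male mice of 14 weeks of age. Every probe set whose symbol was Dbp, Tef, Hlf or Nfil3 was taken, which gave 4 genes of the 21759 named in the table, each with 1 of its 28350 probe sets. Control muscle came from 3 C57 mice of strain C57/B10, wild type for *Dmd* and untreated. The 4 *mdx* mice, on the same background and untreated, carry a nonsense mutation in *Dmd* exon 23 and lack full-length dystrophin in nearly all fibres. Another 4 *mdx* mice, T1 to T4, were given 1 injection of Pip6e-PMO (12.5 mg/kg) into the tail vein when 12 weeks old, 2 weeks before harvest. Pip6e-PMO is a peptide-conjugated morpholino oligonucleotide that removes exon 23 from *Dmd* transcripts, so that treated and untreated *mdx* mice share the mutation. Each mouse was a separate animal with its own Affymetrix Gene ST array, and the number of arrays limits the precision. Levels of clock output genes change through the day. The hour at which muscles were taken is not given in the sources used here, and its part in the differences was not tested.

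In the clock, CLOCK or NPAS2 pairs with ARNTL (BMAL1) and switches on genes that carry an E-box, among them the Per and Cry repressors, the nuclear receptors Nr1d1 and Nr1d2 (REV-ERBs), and Dbp. The proteins of Dbp, Tef and Hlf are activators that share a region rich in proline and acidic residues next to a basic leucine zipper, and they bind an element called the D-box. NFIL3 (E4BP4) is a repressor with a related zipper that binds the same element, and its gene is held down by REV-ERBs through the ROR element, so that activators and repressor peak at different hours. D-boxes lie in clock genes such as Per3 and Nr1d2 and in genes of metabolism and detoxification.

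The 4 genes differ in the exact motif matches found in the 250 bases before their start sites, and the sequences are shown for that reason. They are the 250 bases before each start annotated by RefSeq on GRCm38.p6, written 5′ to 3′ on the strand of the gene, and all 4 genes were found in that table, Tef with both of its start sites. Capitals mark the letters of an E-box (CACGTG), a cAMP response element or CRE (TGACGTCA), or a ROR element (TAGGTCA, which reads TGACCTA on the strand printed for Nfil3).
Dbp, chr7:45704997-45705246, plus strand: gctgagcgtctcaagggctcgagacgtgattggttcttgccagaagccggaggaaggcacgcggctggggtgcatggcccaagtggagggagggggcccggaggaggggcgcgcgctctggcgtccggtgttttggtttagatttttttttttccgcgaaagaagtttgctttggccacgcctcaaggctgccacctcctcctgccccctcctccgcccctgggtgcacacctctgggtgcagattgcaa
Tef, start site 1, chr15:81802423-81802672, plus strand: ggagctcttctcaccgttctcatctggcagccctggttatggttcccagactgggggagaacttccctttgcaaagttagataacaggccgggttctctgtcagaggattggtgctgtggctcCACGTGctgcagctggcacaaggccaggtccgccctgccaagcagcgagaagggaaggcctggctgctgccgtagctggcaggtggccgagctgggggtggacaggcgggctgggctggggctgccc
Tef, start site 2, chr15:81811164-81811413, plus strand: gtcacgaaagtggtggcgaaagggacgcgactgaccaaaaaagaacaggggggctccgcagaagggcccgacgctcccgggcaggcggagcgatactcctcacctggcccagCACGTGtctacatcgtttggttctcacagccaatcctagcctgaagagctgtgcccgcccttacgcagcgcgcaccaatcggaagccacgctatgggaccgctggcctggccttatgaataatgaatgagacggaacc
Hlf, chr11:90390918-90391167, minus strand: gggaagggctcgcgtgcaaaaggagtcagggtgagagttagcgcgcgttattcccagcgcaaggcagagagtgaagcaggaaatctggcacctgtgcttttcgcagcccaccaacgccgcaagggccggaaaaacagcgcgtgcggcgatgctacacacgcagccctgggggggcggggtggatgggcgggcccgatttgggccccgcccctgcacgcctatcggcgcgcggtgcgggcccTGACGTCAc
Nfil3, chr13:52981040-52981289, minus strand: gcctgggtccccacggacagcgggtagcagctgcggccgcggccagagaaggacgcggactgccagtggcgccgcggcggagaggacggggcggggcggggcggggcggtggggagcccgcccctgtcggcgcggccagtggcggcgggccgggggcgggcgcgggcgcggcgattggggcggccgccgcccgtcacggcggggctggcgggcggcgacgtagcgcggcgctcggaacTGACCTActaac

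Both Tef start sites had an E-box, at -127 to -122 for the first and -138 to -133 for the second, counted from the base before the start as -1. Hlf had a CRE at -9 to -2. Nfil3 had a ROR element at -12 to -6. For Dbp none of the motifs searched was present in this window, which held 62.4% G and C. Bases farther upstream or within the gene were not searched, so this does not show that Dbp lacks an E-box. Each motif was searched on both strands, and none of them holds the letters of another. Of 32851 mouse promoters of this length, 6.02% held the E-box, 3.85% the related E′-box (CACGTT), 2.23% the ROR element and 1.55% the CRE. The D-box was rarer, with TTATGTAA in 0.819% and TTACGTAA in 0.113% of promoters, and none of the 4 genes held it here. A match describes these letters and does not show that a factor binds.

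**Figure D1:**
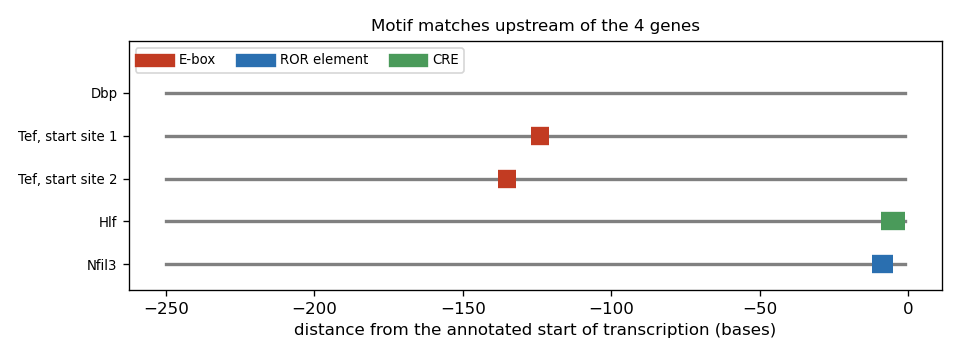
Motif matches in the 250 bases before each annotated start (x axis, distance in bases), 1 line per start site, coloured by motif. Both Tef start sites have an E-box more than 100 bases away, Hlf and Nfil3 have their match within 12 bases of the start, and Dbp has none.

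The label of the tissue was checked against its markers before the genes were read. The 6 muscle fibre markers (such as Acta1 and Ckm) were bright on every array, with a summed linear signal of 41869 to 43053 in the C57 mice, of 43063 to 43758 in *mdx* mice and of 41493 to 44432 after treatment, and none of them was called in any comparison. The 5 T and B cell markers and 2 liver markers had means under the minimum signal of 30 in every group, although Alb, the albumin gene, stood apart in T1 at a log2 signal of 5.97, against 2.78 to 3.94 in the other mice. In *mdx* against C57, 7 of 8 macrophage markers and 4 of 4 regenerating fibre markers were called higher, with no overlap of the summed signals (macrophage markers, 1053 to 1486 in C57 and 2820 to 4506 in *mdx*). Regenerating fibre markers, such as Myog and Myh3, summed to 121 to 131 in C57 mice and 409 to 961 in *mdx* mice, and to 175 to 647 in those treated. Of the fibroblast markers, 2 of 5 were called higher in *mdx*, at sums of 3457 to 4726 in C57 and 5020 to 6283 in *mdx*. Over all probe sets tested, 7.06% were called higher in *mdx* than in C57. In a bulk sample, fewer cells of a type and less RNA per cell cannot be told apart, and the part of these cells in the differences below was not tested.

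Values below are log2 signals of normalized linear intensities, and differences are between group means on that scale. A probe set was tested where its mean linear signal reached 30 in at least 1 group, which 14494 probe sets and all 4 genes did. A gene was called at an adjusted p under 0.05 from limma, with Benjamini-Hochberg adjustment over the 14494, and every test was two-sided. The deposited values resolve steps of a hundredth, since the log2 of 100% of them is a whole hundredth, to within 0.0001 of a step. The deposited positions of the probe sets name no genome build. They place Hlf (probe set 10389786, of 40 probes) at chromosome 11, 90199879 to 90252209, and Dbp (10553092, of 25 probes) at chromosome 7, 52960602 to 52965521. Tef (10425601, of 32 probes) is placed at chromosome 15, 81633209 to 81657293, and Nfil3 (10409278, of 25 probes) at chromosome 13, 53062578 to 53076408.

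The activators were lower in dystrophic muscle, and the repressor was not called. In *mdx* against C57, Hlf was 4.48-fold lower, Dbp 3.21-fold lower and Tef 1.43-fold lower, each with every *mdx* mouse below every C57 mouse, while Nfil3 differed by 0.18 on the log2 scale and its groups overlapped. Thus 3 of the 4 genes were called lower, where 4.96% of all probe sets tested were. The groups did not overlap, with *mdx* below, in 3 of 4 genes and in 11.3% of all probe sets. The median difference was -1.10 over the 4 genes and -0.01 over all probe sets.

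Hlf, the hepatic leukemia factor, named for a translocation in leukaemia, had log2 signals of 7.48, 7.78 and 7.57 in the C57 mice. The *mdx* mice measured 5.28, 5.16, 5.65 and 5.70, well below each of them. Treated mice T1 to T4 measured 5.89, 5.78, 5.89 and 5.75. All 8 dystrophic mice therefore lay far under the 3 C57 mice, and the treated mice lay just above the untreated ones without overlap. In *mdx* the mean was 5.45 ± 0.27 (SD, n = 4) against 7.61 ± 0.15 (SD, n = 3) in C57, a difference of -2.16 (standard error 0.14, 95% interval -2.46 to -1.86, limma adjusted p = 3.3e-06). Of the 14494 probe sets, only 8 had a more negative difference, which put Hlf at rank 9. On the linear scale the *mdx* mice measured 35.8 to 52.0, close to the minimum of 30, where background compresses differences.

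Dbp, the D-box binding protein and the member with the strongest daily rhythm in many tissues, measured 9.79, 9.90 and 10.18 in the C57 mice. The *mdx* mice measured 8.35, 8.09, 8.21 and 8.45. In treated mice the values were 8.86, 8.91, 8.94 and 8.12. T1, T2 and T3 lay above every *mdx* mouse, and T4 lay among them, near their lowest. The *mdx* mean of 8.28 ± 0.16 (SD, n = 4) lay under the C57 mean of 9.96 ± 0.20 (SD, n = 3) by 1.68, written as a difference of -1.68 (standard error 0.19, 95% interval -2.09 to -1.27, limma adjusted p = 1.9e-04), at rank 15 from the lowest. Unlike Hlf, Dbp was far from the minimum signal, at 272.5 to 349.7 on the linear scale in *mdx*.

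Tef, thyrotroph embryonic factor, first known from the pituitary, had the smallest difference of the activators. The C57 mice measured 9.08, 9.15 and 9.21, the *mdx* mice 8.64, 8.53, 8.61 and 8.75, and the treated mice 8.38, 8.81, 8.64 and 8.38. No dystrophic mouse reached a C57 mouse, and treated and untreated *mdx* mice overlapped. The *mdx* mean was 8.63 ± 0.09 (SD, n = 4) and the C57 mean 9.15 ± 0.07 (SD, n = 3), with a difference of -0.51 (standard error 0.12, 95% interval -0.77 to -0.26, limma adjusted p = 0.0129), at rank 524. This call was lost without C57 mouse 2 (adjusted p = 0.0511) and without C57 mouse 3 (adjusted p = 0.0548), at differences of -0.51 and -0.48, and with the mouse number as a replicate block (adjusted p = 0.0528).

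Nfil3, the repressor of the same element, measured 6.63, 6.75 and 6.43 in C57 mice. It measured 6.43, 6.86, 6.99 and 6.84 in *mdx* mice, and 6.69, 6.60, 6.33 and 6.88 in treated mice. The 3 groups overlapped throughout. Means were 6.60 ± 0.16 (SD, n = 3), 6.78 ± 0.24 (SD, n = 4) and 6.63 ± 0.23 (SD, n = 4), and *mdx* minus C57 gave 0.18 (95% interval -0.16 to 0.51, limma adjusted p = 0.547). The interval leaves room for a rise of up to 0.51, and a p of this size does not show that the groups were alike.

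**Figure D2:**
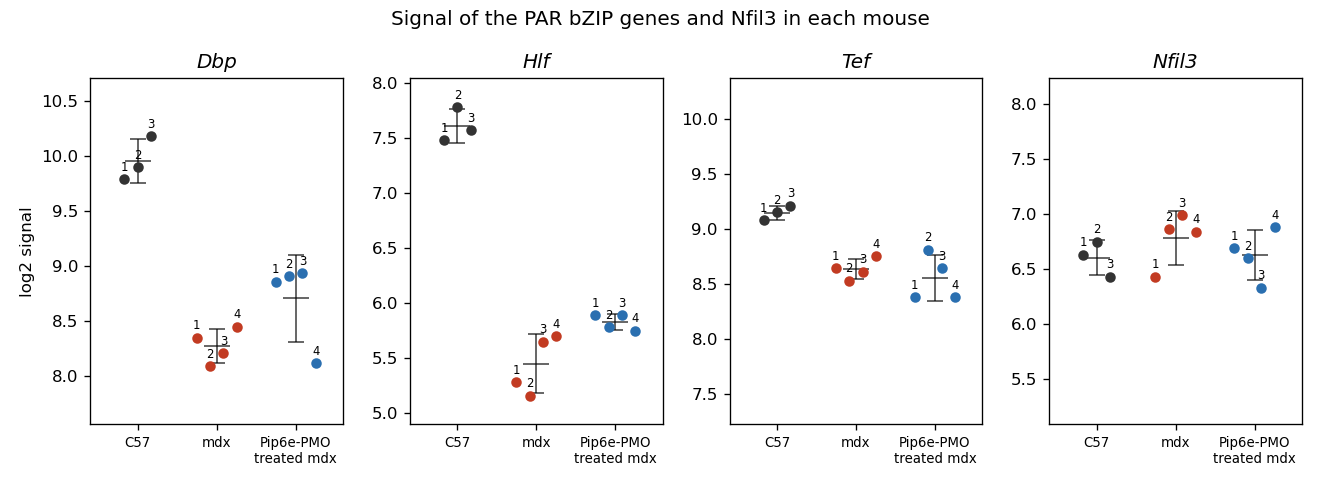
Log2 signal (y axis, its own range of the same height in each panel) of Dbp, Hlf, Tef and Nfil3 in every mouse, numbered as in the labels, by group (x axis), with the mean and SD of each group. C57 mice stand above all dystrophic mice for Dbp, Hlf and Tef, the 3 groups mix for Nfil3, and treated mouse T4 sits apart from T1 to T3 for Dbp.

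Whether one gene moved by more than another was asked within each array, from the log2 difference between 2 genes in the same mouse. The 6 pairs were compared in *mdx* against C57 and in treated against *mdx* by exact permutation tests, two-sided, 12 in all. With 3 mice against 4 the smallest exact p is 0.0286, so the adjustment over the 12 leaves little room, and none of the 12 had an adjusted p under 0.05. Hlf minus Nfil3 was 0.85 to 1.14 in C57 and -1.70 to -1.14 in *mdx*, a shift of -2.34 (exact permutation p = 0.0286, adjusted 0.0571). Dbp minus Nfil3 shifted by -1.86, from 3.15 to 3.75 in C57 to 1.22 to 1.92 in *mdx* (exact permutation p = 0.0286, adjusted 0.0571). The balance of activator over repressor was thus lower in every *mdx* mouse than in every C57 mouse for both. Tef minus Nfil3 did the same with a shift of -0.69 (exact permutation p = 0.0571, adjusted 0.0857). Among the activators, Hlf minus Tef shifted by -1.65 and Dbp minus Tef by -1.17, each without overlap (exact permutation p = 0.0286 for each, adjusted 0.0571). Hlf minus Dbp shifted by -0.48 with overlapping groups (exact permutation p = 0.0857, adjusted 0.114).

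Treatment left all 4 genes uncalled against untreated *mdx*, although Dbp and Hlf had higher means. None of the 4 genes was called by limma, where 11.1% of all probe sets tested were called in either direction and 7.26% were called higher, and 2 of the 4, Dbp and Hlf, had an unadjusted p under 0.05. That background rests on single mice, for the 1615 probe sets called in either direction became 4103 without T2, 986, 559 and 354 without *mdx* mice 2, 3 and 4, and 490, 380 and 269 without T1, T3 and T4. The treated mice lay above the *mdx* mice without overlap in 1 gene, Hlf, and in 9.29% of all probe sets. The median difference was 0.15 over the 4 genes and 0.02 over all probe sets.

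For Hlf, treated mice averaged 5.83 ± 0.07 (SD, n = 4), which is 0.38 above *mdx* (standard error 0.13, 95% interval 0.10 to 0.66, limma adjusted p = 0.0707). The lowest treated mouse, at 5.75, lay close to the highest *mdx* mouse, at 5.70. With arrays weighted by their spread around the group means, Hlf was called (difference 0.39, limma adjusted p = 0.0271).

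For Dbp, the treated mean was 8.71 ± 0.39 (SD, n = 4), 0.43 above *mdx* (standard error 0.17, 95% interval 0.05 to 0.81, limma adjusted p = 0.115). T4 decides this value, for without it the difference was 0.63 and was called (limma adjusted p = 0.0324). Tef in treated mice averaged 8.55 ± 0.21 (SD, n = 4), a difference of -0.08 (95% interval -0.31 to 0.15, limma adjusted p = 0.646). Nfil3 differed by -0.15 (95% interval -0.47 to 0.16, limma adjusted p = 0.487). Within arrays, treated against *mdx*, Hlf minus Nfil3 shifted by 0.53 and Dbp minus Tef by 0.51, each without overlap (exact permutation p = 0.0286, adjusted 0.0571). The shift of Hlf minus Tef was 0.46 with overlap (exact permutation p = 0.0571, adjusted 0.0857), and that of Dbp minus Nfil3 was 0.59 (exact permutation p = 0.114, adjusted 0.137). Without T2, 3 pairs passed, with exact permutation p = 0.0286 and adjusted p = 0.049 for Hlf minus Tef, Hlf minus Nfil3 and Dbp minus Tef. Of these, only Hlf minus Tef had a lower exact p than with T2, now also at the smallest possible value. For Hlf minus Nfil3 and Dbp minus Tef the exact p was unchanged. Their adjusted p fell because more tests shared the smallest p, which is no stronger evidence for them. Hlf minus Dbp and Tef minus Nfil3 shifted by -0.05 and 0.07, with exact permutation p of 0.771 and 0.800.

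Against C57, the treated mice had lower levels of the activators. Hlf was 3.44-fold lower in treated mice (difference -1.78, 95% interval -2.08 to -1.48, limma adjusted p = 1.8e-05). Dbp was 2.38-fold lower (difference -1.25, 95% interval -1.66 to -0.84, limma adjusted p = 0.00108), and Tef 1.51-fold lower (difference -0.59, 95% interval -0.85 to -0.34, limma adjusted p = 0.00453). For each of the 3, every treated mouse lay under every C57 mouse. Nfil3 differed by 0.02 (95% interval -0.32 to 0.36, limma adjusted p = 0.931), a value whose sign changed with the scaling of the arrays. Of all probe sets tested, 8.96% were called lower in treated mice than in C57, and in 14.1% the treated mice were lower without overlap. Of the calls in this comparison 63.6% were higher, against 51.1% with each array centred on its median and 48.2% with quantile normalization repeated, where 12.9% of probe sets were called lower under both. The calls of Dbp and Tef were lost with an unequal-variance test (adjusted p = 0.0673 and 0.0854), which left 1 of the 3, and that of Tef also with the methods' unpaired test on log2 and on linear signals (adjusted p = 0.0555 and 0.0503).

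In percent of the gap between the *mdx* and C57 means, with both groups' values shared by all mice, the treated mean of Hlf lay at 17.6% and that of Dbp at 25.7%. The 4 treated mice lay close together for Hlf, at 20.5, 15.4 and 20.5% for T1 to T3 and a little less for T4. Dbp gave 34.8, 37.8 and 39.5% in T1, T2 and T3 and -9.2% in T4, below the *mdx* mean. The mean for Tef lay at -15.6%, on the far side of *mdx*, with T1 and T4 at -49.1%, T2 at 34.5% and T3 at 1.5%. No such share is given for Nfil3, whose *mdx* and C57 groups overlapped. The order of the group means was C57, treated and *mdx* for Hlf and Dbp, and C57, *mdx* and treated for Tef. Treated and *mdx* are neighbours in each order, and their means did not differ beyond the threshold.

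**Figure D3:**
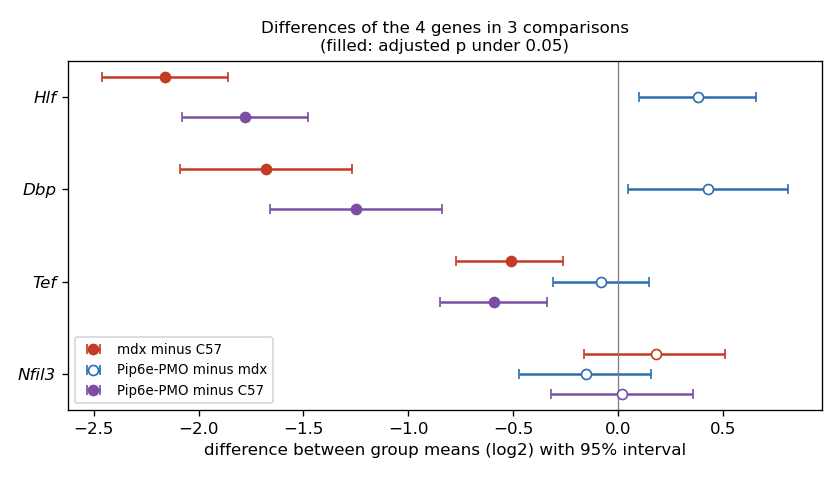
Differences between group means on the log2 scale (x axis) with 95% intervals for Hlf, Dbp, Tef and Nfil3 in the 3 comparisons, filled where the adjusted p was under 0.05. Hlf, Dbp and Tef lie left of 0 in both comparisons with C57, no treated minus *mdx* point is filled, and the 3 intervals of Nfil3 span 0.

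The genes whose profile over the 11 mice was most like that of each called gene were looked for among 11840 genes, with each profile centred on its own mean. Group means were kept, so genes with group differences of like size rank close. Likeness therefore does not show that genes moved together from mouse to mouse. Hlf was closest to Per2, a repressor of the clock, with a root mean square difference of 0.167 on the log2 scale against a spread of 0.910 for Hlf itself. Frzb (0.274), a secreted inhibitor of Wnt signalling, Rasd2 (0.283), a small GTPase, and Esrrb (0.293), an orphan nuclear receptor, followed. The closest mirror images of Hlf were Ctss (0.215), the lysosomal protease cathepsin S of macrophages, and C3ar1 (0.223), a complement receptor, both higher in *mdx*, by 2.20 and 1.90.

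Dbp was closest to Per3 (0.238, against a spread of 0.720 for Dbp), followed by Rasd2 (0.295), Dgat2 (0.296), which makes triglyceride, and Gkn3 (0.316). Its mirror images were Tiam2 (0.264), an exchange factor for Rac, and Npnt (0.265), a matrix protein. Tef, with a spread of only 0.280, was closest to Ncdn (0.083), 5730403B10Rik (0.093), Akr7a5 (0.095) and Ifrd2 (0.099), and opposite to 1190002N15Rik (0.093) and Gna13 (0.094). Closest genes were named by this distance alone, so a small spread gives small distances. Nfil3 was not called and was not searched.

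Genes of the clock loop were called in both directions. In *mdx* against C57, 7 of 18 clock loop genes were called, 5 lower and 2 higher, at a median difference of -0.32 against -0.01 for all probe sets. Of all probe sets, 4.96% were called lower and 7.06% higher. The 2 higher clock loop genes were the partners that drive Dbp, Npas2 (difference 2.79, limma adjusted p = 1.9e-07) and Arntl (1.53, adjusted p = 4.5e-04). Clock, the other partner of Arntl, was 0.50 higher and not called. The 5 lower genes were repressors, Per2 (difference -2.17, limma adjusted p = 2.1e-05), Per3 (-1.60, adjusted p = 7.7e-05), Cry2 (-0.95, adjusted p = 0.00215), Bhlhe41 (-0.71, adjusted p = 0.00379) and Ciart, a repressor of CLOCK and ARNTL listed under its older name Gm129 (-3.28, adjusted p = 2.5e-05). A second probe set of Ciart gave -3.23 (limma adjusted p = 3.4e-05). The deposited positions place the first, used for all other Ciart values here, on chromosome 10 and the second on chromosome 3. Per1 differed by -1.51 with mice of *mdx* spread from 6.90 to 8.92, and was not called (adjusted p = 0.0564). Nr1d1, which represses Nfil3, differed by -0.08 and Nr1d2 by -0.59, neither called.

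In treated against *mdx*, 5 of the 18 clock loop genes were called, all higher, where 7.26% of all probe sets were called higher. A positive difference was found in 17 of the 18, at a median of 0.23 against 0.02 for all probe sets. Among the 5 called were Nr1d2 (0.84, limma adjusted p = 0.0186), Per3 (0.67, adjusted p = 0.022), Rora, the activator at the ROR element (0.59, adjusted p = 0.0291), and Nr1d1 (0.33, adjusted p = 0.0336). None of the 5 was called with the methods' unpaired test or with an unequal-variance test, and with single mice left out 1 to 6 clock loop genes were called, with 1 without *mdx* mouse 3 or without T4, and 2 without *mdx* mouse 4, T1 or T3. Genes that carry a known D-box, and so could respond to the 4 factors, form 7 of the 18. Of these 7, 2 were called lower in *mdx*, against 4.96% of all probe sets (Per2 and Per3, median of the 7 -0.59). In treated against *mdx*, 4 of the 7 were called higher, against 7.26% of all probe sets (Nr1d2, Per3, Rora and Nr1d1, median 0.33). In the 250 bases before their starts, Per3 alone of the 13 clock loop genes found in the promoter table held a D-box, in the form TTATGTAA, which 0.977% of 27025 genes held. Bhlhe41, Ciart, Cry1 and Per1 held an E-box, as did 6.86% of genes.

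**Figure D4:**
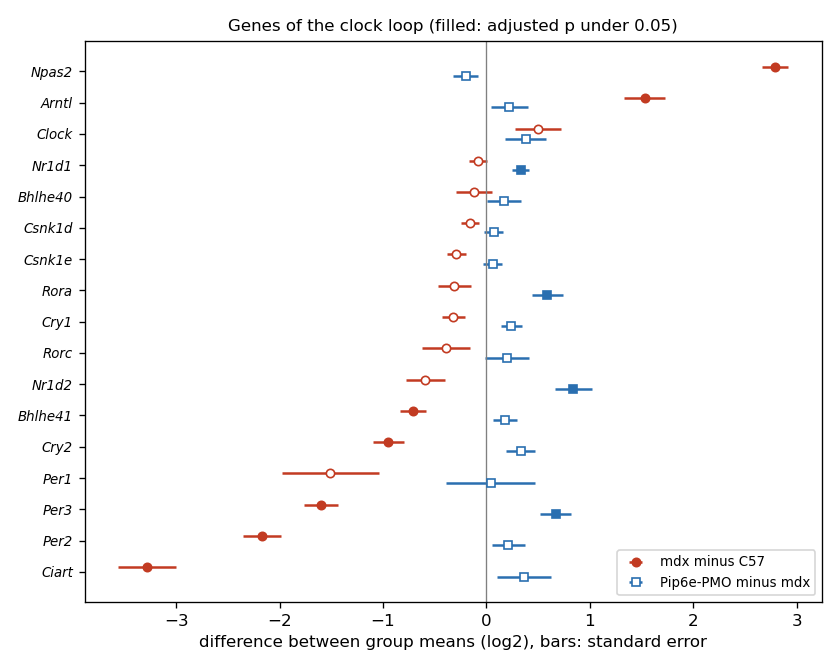
Differences between group means on the log2 scale (x axis) with standard errors for 17 of the 18 clock loop genes, *mdx* minus C57 as circles and treated minus *mdx* as squares, filled where the adjusted p was under 0.05. Npas2 and Arntl lie to the right and Ciart, Per2 and Per3 to the left in *mdx* minus C57, and all squares but that of Npas2 lie right of 0.

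Mouse by mouse, T4 stood apart from T1 to T3 in Dbp and in several clock genes at once. Ciart measured 6.93, 6.97 and 6.99 in T1 to T3 and 5.95 in T4. Npas2 measured 7.52, 7.52 and 7.45 in T1 to T3 and 7.87 in T4. The *mdx* mice ranged from 5.92 to 7.04 for Ciart, a range that holds all 4 treated mice, and from 7.57 to 8.00 for Npas2, a range that holds T4 but lies above T1 to T3. T4 was also the lowest treated mouse in Per1 (6.96), Per2 (5.62) and Per3 (7.29), and the highest in Arntl (7.70). For Hlf its 5.75 was the lowest of the treated mice but close to the 5.78 of T2, and for Nfil3 its 6.88 was the highest.

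**Figure D5:**
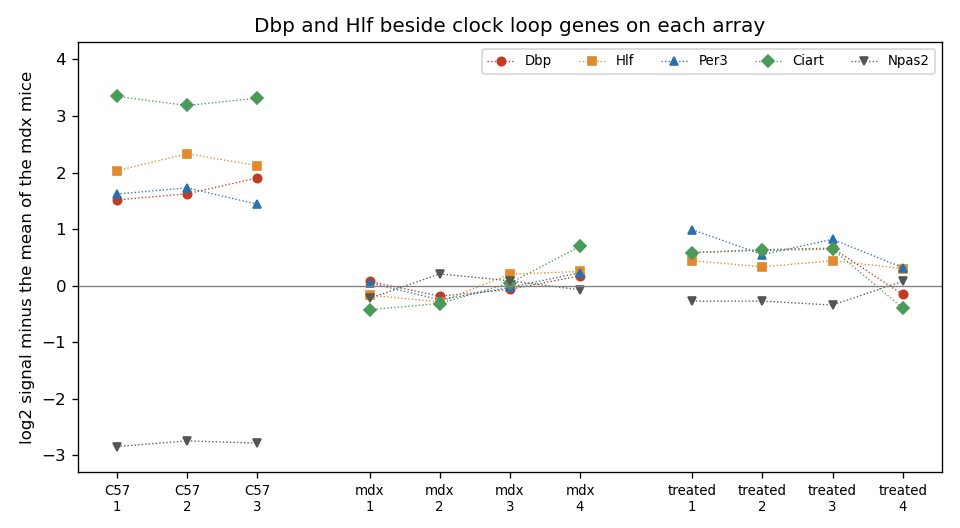
Log2 signal minus the mean of the 4 *mdx* mice (y axis) for Dbp, Hlf, Per3, Ciart and Npas2 on each of the 11 arrays (x axis), where dotted lines only join the mice of a group. Dbp, Hlf, Per3 and Ciart are high and Npas2 low in all C57 mice, and Dbp and Ciart of treated mouse 4 fall below 0, away from treated mice 1 to 3.

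Reported targets of the PAR bZIP factors were mostly out of range in muscle. Of 14 such genes, known largely from liver, kidney and brain, 10 stayed under the minimum signal, among them Cyp7a1, the rate-limiting enzyme of bile acid synthesis, and Fgf21. Of the 4 tested, 2 were called lower in *mdx* (4.96% of all probe sets) and none higher, with a median of -0.38. Ppara, a nuclear receptor of fatty acid oxidation, measured 7.20, 7.84 and 7.42 in C57 and 6.65 to 7.07 in *mdx*, a difference of -0.70 (limma adjusted p = 0.0186). Pdxk, pyridoxal kinase, which makes the active form of vitamin B6, measured 7.54, 7.54 and 7.82 in C57 and 6.81 to 7.24 in *mdx*, a difference of -0.54 (limma adjusted p = 0.0349). In both the *mdx* mice lay below all C57 mice, as they did in 11.3% of all probe sets. Alas1, the first enzyme of haem synthesis, differed by -0.01 and Por, the electron donor of cytochromes P450, by -0.23, neither called. In treated against *mdx* none of the 4 was called, with differences of -0.31 to 0.25. None of the 13 targets in the promoter table held a D-box in the 250 bases.

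Further along the output, 5 of 13 clock-controlled genes were called in *mdx* against C57, 4 lower and 1 higher (4.96% and 7.06% of all probe sets), at a median of -0.24. The lower genes were Usp2, a ubiquitin protease (difference -1.02, limma adjusted p = 0.00128), Ucp3, a mitochondrial uncoupling protein (-0.88, adjusted p = 0.0307), Klf15, a regulator of amino acid and lipid use (-0.69, adjusted p = 3.4e-04) and Lpl, lipoprotein lipase (-0.48, adjusted p = 0.0345). Klf10 was higher by 0.80 (limma adjusted p = 0.027). Treated against *mdx*, 4 of the 13 were called higher (Nampt, Lpl, Tead1 and Hk2, by 0.41 to 0.78) and none lower, at a median of 0.06. Over all probe sets, 7.26% were called higher in that comparison. Usp2 and Klf15 differed there by 0.06 and -0.03, neither called, as was the case for Tef.

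Other bZIP factors can bind related elements, and 9 of them were read beside the 4 genes, with differences of -0.69 to 0.41 in *mdx* against C57. Of the 9, 2 were called lower and none higher, Cebpb (-0.69, limma adjusted p = 0.0224) and Ddit3, a stress-induced partner of C/EBP proteins (-0.60, adjusted p = 0.00859), at a median of -0.16. Over all probe sets, 4.96% were called lower. Creb1, which binds the CRE, was called higher in treated against *mdx*, by 0.56 with overlapping groups (limma adjusted p = 0.0305). None of the other 8 was called, and the median of the 9 was -0.02. Over all probe sets, 7.26% were called higher in that comparison.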

How the data were processed

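Total RNA (100 ng) from TA muscle was run on Mouse Gene ST arrays of Affymetrix, 1 per mouse (3 C57, 4 *mdx*, 4 Pip6e-PMO-treated). The authors processed the arrays in Expression Console (RMA background correction, sketch-quantile normalization, median polish) and deposited linear intensities, taken here to log2. Such normalization sets arrays to 1 distribution, so a shift of all genes would not be seen. Median intensity per array was 27.5 to 28.6. The methods' removal of probe sets below 30 in all groups, not yet applied, was applied as a mean of at least 30 in at least 1 group (14494 of 28350). In R 4.3.3, limma 3.58.1 (lmFit, eBayes) fitted 1 mean per group to all 11 mice, with Benjamini-Hochberg adjustment, and was tested on simulated data. Python 3.11.15, pandas 2.3.3, NumPy 2.4.6 and matplotlib 3.10.9 did the rest.

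The members and lists were chosen with earlier results of these data known. Named were the 4 members, up to 6 genes per list, and, for called members, the 4 genes with the smallest root mean square difference of centred log2 profiles and the 2 with the smallest to the profile turned in sign. Where a gene had several probe sets, that of the highest mean was used. The values of 1 listed gene are not reported here. Groups came from the labels. Alternatives were other tests, scalings, filters, priors and array weights, 1 probe set per gene, a replicate block, a fit of 2 groups, and leaving out each mouse.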

Additional observations from a re-analysis of the deposited data

Results flagged for a closer look

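In groups of 4 mice, 44 sets of values of the 4 genes and the 18 clock loop genes were searched for a mouse whose gap to the nearest other, divided by the range of the group, passed the 95% critical value of Dixon's test, and 5 did. Chance gives about 1 in 20. Dbp in T4 measured 8.12 against 8.86 to 8.94 in the other treated mice (gap over range 0.902). Ciart in T4 measured 5.95 against 6.93 to 6.99 (0.942), and Npas2 in T4 measured 7.87 against 7.45 to 7.52 (0.833), so that 3 of the 5 were in T4. Rora in T2 measured 7.33 against 7.76 to 7.82 in the other treated mice (0.878). Arntl in *mdx* mouse 2 measured 7.19, while the other 3 *mdx* mice all measured 6.93 (1.00). No cause of these values was tested.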

How the results depend on the processing

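The calls of Dbp and Hlf as lower in *mdx* than in C57 held under every alternative run, with each mouse left out at -1.77 to -1.57 for Dbp and -2.25 to -2.07 for Hlf; Tef lay at -0.55 to -0.48. Over the 4 genes and 3 comparisons, 260 alternatives kept direction and side of the threshold, 7 lost and 2 gained a call and 7 changed sign. All 7 were of Nfil3, treated minus C57 (0.02): -0.15 with array weights, -0.02 with arrays centred on the median, -0.11 with repeated quantile normalization, -0.03 with the replicate block, and -0.07, 0.00 and -0.06 without C57 mouse 3, T1 and T4, within -0.07 to 0.12 over mice left out.

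In *mdx* against C57, 7 clock loop genes were called, 4 with an unequal-variance test and 11 with array weights. In treated against *mdx*, 0 members were called, 1 with array weights and 0 to 1 with mice left out; 5 clock loop genes were called, 0 with the methods' test on log2 or linear signals, 0 with an unequal-variance test, 3 with the replicate block and 1 to 6 with mice left out. Members called in treated against C57 went from 3 to 1 with an unequal-variance test, and pairs of genes in treated against *mdx* from 0 to between 0 and 3 with mice left out. At an unadjusted p under 0.05, the methods' test took 3, 1 and 3 members in *mdx* against C57, treated against *mdx* and treated against C57; after adjustment it took 3, 0 and 2. The cause was not tested.

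Mouse numbers mark different animals. Same-numbered mice had correlated deviations of -0.297 to 0.153, and in none of the comparisons did a mouse correlate best with its own number. The replicate block left 1145 of 1742 calls over all probe sets in *mdx* against C57 and 498 of 1615 in treated against *mdx*, and among the members lost Tef in *mdx* (adjusted p = 0.0528).

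Over all probe sets, calls in these 2 comparisons came to 3379 and 4614 with array weights, 791 and 88 with the methods' test on log2 signals, 538 and 77 on linear signals, and 325 and 10 with an unequal-variance test. In *mdx* against C57 they came to 1003 without C57 mouse 2 and 1133 without C57 mouse 3; in treated against C57, the 3564 calls came to 1990 and 1893. A mean over several probe sets of a gene was not run, since each member has 1. Signal over background limits Hlf, whose *mdx* values lie near the minimum of 30, and 10 of the 14 reported targets, which lie under it.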

Other observations

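Glucocorticoids also set peripheral clocks, and 12 genes that respond to them were read beside the members. In *mdx* against C57, 2 were called higher (7.06% of all probe sets) and none lower, at a median of 0.04. Both were metallothioneins, which bind metals and also respond to inflammation, Mt1 at 10.87 ± 0.50 (SD, n = 4) in *mdx* against 9.37 ± 0.27 (SD, n = 3) in C57 (limma adjusted p = 0.0086) and Mt2 at a difference of 2.47 (adjusted p = 3.8e-04). The other 10 were not called, among them Fkbp5, Tsc22d3 and Sgk1, which differed by 0.05, -0.23 and -0.09. In treated against *mdx*, Nr3c1, the receptor itself, was higher by 0.82 (limma adjusted p = 0.0123) and Klf9 by 0.39 (adjusted p = 0.0294), while Mt1 (-1.07, adjusted p = 0.0377) and Mt2 (-1.29, adjusted p = 0.0211) were lower, at a median of -0.14. The other 8 were not called. Over all probe sets, 7.26% were called higher and 3.88% lower in that comparison. For Mt1 and Mt2, T2 alone of the treated mice lay within the *mdx* range, at 10.67 and 12.00.

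Marker lists were also read in treated against *mdx*. Of 8 macrophage markers, Cd68 (-1.04) and Tyrobp (-1.12) were called lower and Mrc1 (0.49) higher. For Cd68 and Tyrobp, T2 alone of the treated mice lay within the *mdx* range, at 9.15 and 8.68. Summed macrophage signals of 2207 to 2991 in treated mice overlapped those of *mdx*. Fat cell markers, 2 of 3 tested, were both called lower, with differences of -1.64 and -1.56. These were Adipoq and Plin1, where T2 was again the only treated mouse within the *mdx* range, at 5.78 and 6.03. Over all probe sets, 3.88% were called lower and 7.26% higher in treated against *mdx*, a background that rests on single mice, as said above. None of the 4 regenerating fibre and 5 fibroblast markers was called, at medians of -0.99 and 0.22. T2 also stood apart in the regenerating fibre markers Myog, Mymk and Myh3, and its array had the lowest weight of the 11 (0.26). Weights come from the spread around group means, so a poor array and a mouse unlike its group cannot be told apart. For its sample T2, the paper reports the lowest therapeutic efficacy by exon skipping and by dystrophin in mass spectrometry. The paper adds that its western blot values did not correlate significantly with either measure, and calls densitometry less quantitative. It also reports that the mRNA of T2 was the least restored. The part of this in the values was not tested. Myog measured 5.08, 5.22 and 4.97 in T1, T3 and T4, below the 6.34 to 7.22 of the *mdx* mice, while T2 lay within that range. Mymk measured 6.89, 6.91 and 6.04 in T1, T3 and T4 and 8.59 in T2, against 7.75 to 9.27 in *mdx*. Myh3 measured 5.26, 5.25 and 4.57 in T1, T3 and T4 and 6.26 in T2, against 5.28 to 6.95 in *mdx*.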
